A study of Mus musculus with 3 samples.

Results

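The genes described here mark forebrain neurons that make GABA, the main inhibitory transmitter of the brain. They were taken by symbol from the deposited table: Gad1, Gad2, Dlx1, Dlx2, Dlx5, Dlx6, Lhx6, Erbb4 and Nkx2-1. All 9 were found among its 39377 rows. The study sequenced total RNA of whole hippocampus from wild-type (WT) C57BL/6 mice at postnatal day 14, in 1 group of 3 libraries, here libraries 1, 2 and 3. No treatment or second genotype was analysed here, and whether each library came from its own animal is not stated, so the p-values speak of the variation among these 3 samples, possibly a technical one. All comparisons are therefore between genes within the same libraries. Levels are in FPKM (fragments per kilobase of transcript and per 1000000 fragments), values after ± are SDs over n = 3 libraries, and depth was about 3690000, 4130000 and 5890000 fragments, estimated from the steps between low values.

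Hippocampal interneurons are born outside the hippocampus, in the ganglionic eminences of the ventral forebrain, and migrate into it before birth. There the homeobox genes Dlx1, Dlx2, Dlx5 and Dlx6 are switched on in GABAergic precursors, and Nkx2-1 acts upstream of Lhx6 in the medial eminence, the source of the parvalbumin and somatostatin classes. Nkx2-1 is turned off in the interneurons that settle in cortex and hippocampus, whereas Lhx6 stays on. Gad1 and Gad2 encode the enzymes that make GABA from glutamate, and Erbb4 encodes a neuregulin receptor found on many interneurons.

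The members spanned a wide range of levels. Gad1 was the highest at 52.5 ± 8.16 FPKM, Gad2 (16.3 ± 3.11) and Dlx1 (13.4 ± 2.87) followed, and Nkx2-1 was the lowest at 0.51 ± 0.03 FPKM. Of the 9 members, 8 had a mean of at least 1 FPKM, the level required for testing, and Nkx2-1 did not. Gad1 ranked 1970 and Nkx2-1 14667 by mean FPKM among the 19046 genes detected in any library. The median over the 9 members was 4.06 ± 1.11 FPKM. In whole tissue, fewer cells of a type and less RNA per cell cannot be told apart.

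**Figure D1:**
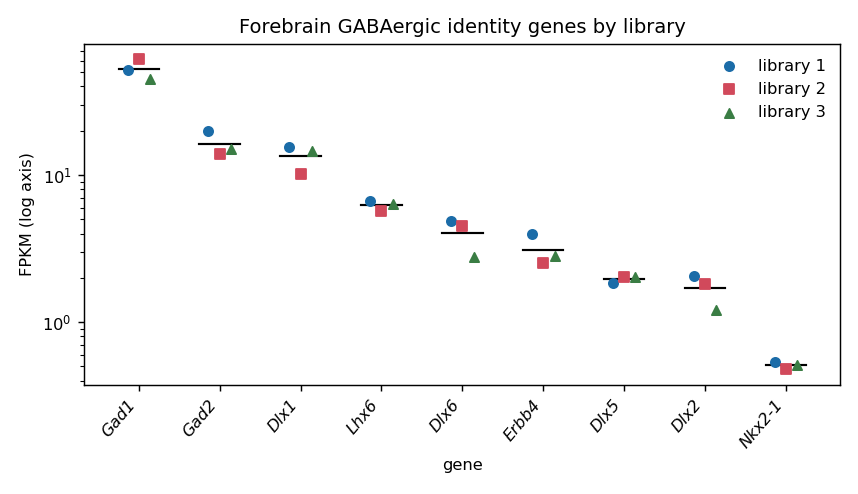
FPKM of the 9 genes (log axis) in each library, ordered by mean; points are libraries 1 to 3 and bars the mean. Gad1 lies above all other members in every library and Nkx2-1, at 0.48 to 0.54 FPKM, below all others.

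Among the GABA-synthesising enzymes, Gad1 encodes GAD67, the form found through the whole cell, and Gad2 encodes GAD65, the form concentrated at synaptic terminals. Gad1 (Entrez 14415) is annotated on the plus strand at chr2:70553072-70602014 of GRCm38, and its main transcript has 17 exons and 3355 bases. Its level was 51.6, 61.0 and 44.75 FPKM in libraries 1, 2 and 3, which rested on about 585, 780 and 821 fragments. Gad2 (Entrez 14417) lies on the plus strand of the same chromosome, at chr2:22622205-22693874, with 16 exons and 5744 bases. Its level was 19.83, 13.96 and 15.13 FPKM, from about 400, 316 and 490 fragments. The ranges of the enzymes did not overlap. Library 2 had the highest Gad1 and the lowest Gad2, so that the ratio of Gad1 to Gad2 was 2.60, 4.37 and 2.96 in the 3 libraries. Gad1 made up 72.2%, 81.4% and 74.7% of the FPKM of the pair. Counting error was at most 4.13% for Gad1 and 5.62% for Gad2 in any library.

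The difference of Gad2 to Gad1 was -1.63 log2 units (SE 0.231, lower in 3 of 3 libraries, limma adjusted p = 2.66e-12 against a null of no difference). Of all genes tested against Gad1 in that way, 80.5% were lower. The limma fit gave every gene the same SE here, since the spread of Gad1 enters every difference. It took this SE as known with 26672 degrees of freedom, although there were 3 libraries, and its p-values are therefore too small. With the gene's own spread (SE 0.216) the adjusted p was 0.0232 (limma fit without moderation).

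The other steps of GABA handling ranged from near 0 to above Gad1. Slc32a1, the vesicular GABA transporter gene that loads synaptic vesicles, was at 25.83, 21.34 and 21.53 FPKM, and Gad1 was 2.31 ± 0.475 times as high. The astrocytic uptake carrier gene Slc6a11 stood at 55.3 ± 2.56 FPKM. Genes of GABA breakdown, which act in mitochondria, were at 69.2 ± 5.05 FPKM for the transaminase Abat and 26.7 ± 0.717 FPKM for the succinic semialdehyde dehydrogenase Aldh5a1. Slc6a13, a carrier gene of the meninges and other barrier cells, was at 4.19 ± 1.56 FPKM, and Slc6a12 was at 1.05, 0.34 and 0.29 FPKM. Of the 7 genes of this list tested against Gad1, Gad2 and Slc6a13 were called lower by more than 1 log2 unit, beside 66.1% of all genes (60.7% with each gene's own spread), and the other 5 had no call (limma, adjusted over all genes). With each gene's own spread, 1 of the 7, Slc6a13, was called.

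Among the Dlx genes, Dlx1 was the highest and carried 63.0% ± 8.01 of the FPKM summed over Dlx1 to Dlx6. These genes encode homeodomain transcription factors and lie in pairs whose members face each other. Dlx1 (Entrez 13390, plus strand, chr2:71528113-71533981) and Dlx2 (Entrez 13392, minus strand, chr2:71543408-71546754) are separated by 9426 bases. Dlx6 (Entrez 13396, plus strand, chr6:6863334-6868568) and Dlx5 (Entrez 13395, minus strand, chr6:6877805-6882085) are separated by 9236 bases.

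Dlx1 was at 15.55, 10.16 and 14.56 FPKM, with library 2 the lowest. Its partner Dlx2 was at 2.06, 1.82 and 1.21 FPKM, with library 3 the lowest. The ranges did not overlap, and the ratio of Dlx1 to Dlx2 was 7.55, 5.58 and 12.03 in the 3 libraries. Dlx2 rested on about 17, 17 and 16 fragments, a counting error of about 25.1% at most, so the order of its values among libraries was not resolved at this depth.

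Dlx6 was at 4.89, 4.50 and 2.79 FPKM, from about 35, 36 and 32 fragments. Dlx5 was at 1.85, 2.04 and 2.02 FPKM, from about 8, 10 and 14 fragments. Dlx6 lay above Dlx5 in each library, by a ratio of 2.08 ± 0.641. In library 3 that order was not resolved at this depth (2.79 and 2.02 FPKM, counting errors 17.5% and 26.7%). Counting errors of Dlx5 ran from 26.7% to 35.8% in a library and limit every ratio to Dlx5. Across the loci, Dlx1 was 6.86 ± 1.74 times Dlx5, and Dlx2 was 0.420 ± 0.0147 times Dlx6. The SD of that last ratio is narrower than the counting errors of Dlx2 (at least 24.5% in a library) and Dlx6 (at least 16.6%) and does not measure precision. The remaining family members were near or at 0. Dlx3, a gene of skin and bone, was listed at 0, 0.10 and 0.07 FPKM, and Dlx4 at 0 in all 3 libraries.

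Noncoding RNAs from these loci were measured beside the members. Dlx1as, transcribed from the strand opposite Dlx1, was at 9.65, 11.76 and 9.72 FPKM. It shares 335 exonic bases with the main Dlx1 transcript, 8.15% of its length. Dlx6os1, also known as Evf2, spans Dlx6 on the other strand and was at 3.76, 4.65 and 2.96 FPKM, a range that overlaps that of Dlx6. Its annotated exons share 0 bases with the main Dlx6 transcript. Dlx6os2 shares 104 bases with Dlx6 and was listed at 0, 0 and 0.15 FPKM. Of the other genes annotated across a member, Gad1os, opposite Gad1, was listed at 0.86, 0 and 0 FPKM, Mir3967 in Gad2, Gm19335 and Gm25542 in Erbb4 and Gm26973 opposite Nkx2-1 were at 0 throughout, and each shares 0 exonic bases with the member. Gm27953 shares 104 bases with Lhx6 on the same strand. Gm23636 in Gad2 and Gm15670, Gm16076, Gm37061, Gm37100, Gm37735, Gm37769 and Gm51744 in Erbb4 were matched to no value. Whether counting used strand is not given in the sources used here, so reads of Dlx1 and Dlx1as over their shared bases cannot be told apart.

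**Figure D2:**
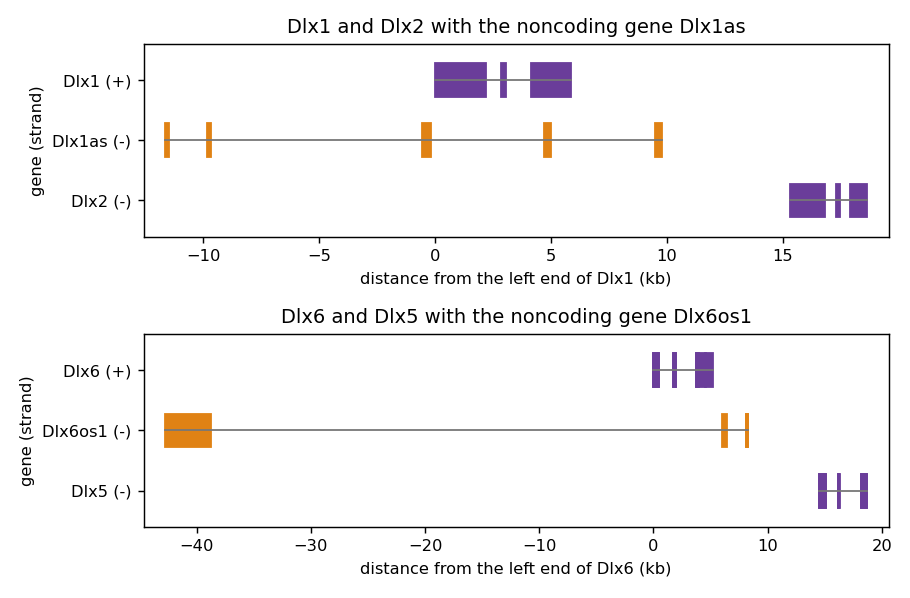
Exons (boxes) of the annotated basic transcripts at the Dlx1/Dlx2 and Dlx6/Dlx5 loci against distance in kb, members in purple and noncoding genes in orange. Dlx1as overlaps an exon of Dlx1, whereas the exons of Dlx6os1 lie outside those of the main Dlx6 transcript.

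Dlx proteins bind DNA with a core of TAATTA, and the start regions of the members and of Dlx6os1 were searched for it, since 4 of the members encode such proteins. TAATTA reads the same on both strands. RefSeq promoter windows of GRCm38.p6, 250 bases before to 50 bases after an annotated start, were matched for 7 of the 9 members (9 windows). Dlx5 and Dlx6 had no entry. The core was in 0 of these 9 windows, in both windows of Dlx6os1, and in 5.29% of all 32851 windows. A match is a description of these letters and not a binding site, and no match says only that the letters are not in the window. The 250 bases before the start are shown for Dlx2 (minus strand, chr2:71546755-71547004) and for the Dlx6os1 start with more matches (minus strand, chr6:6869534-6869783), with the core in capitals.
Dlx2: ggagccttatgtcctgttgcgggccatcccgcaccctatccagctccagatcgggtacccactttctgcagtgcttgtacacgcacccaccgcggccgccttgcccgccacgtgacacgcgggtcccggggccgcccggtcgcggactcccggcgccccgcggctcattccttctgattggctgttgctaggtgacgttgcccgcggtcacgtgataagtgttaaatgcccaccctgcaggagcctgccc
Dlx6os1: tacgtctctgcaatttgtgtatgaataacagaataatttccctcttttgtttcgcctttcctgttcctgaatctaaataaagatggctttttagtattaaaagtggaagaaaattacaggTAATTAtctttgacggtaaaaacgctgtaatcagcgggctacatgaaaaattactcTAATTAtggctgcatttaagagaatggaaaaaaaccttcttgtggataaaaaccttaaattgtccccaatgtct
The Dlx6os1 stretch holds the core 2 times and the Dlx2 stretch 0 times. An exon of another Dlx6os1 transcript reaches into the Dlx6os1 stretch.

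Of the medial ganglionic eminence factors, Lhx6 was detected well above its counting limit and Nkx2-1 close to it. Lhx6, a LIM homeodomain factor kept in somatostatin and parvalbumin interneurons (Entrez 16874, minus strand, chr2:36081953-36105408, 10 exons), was at 6.65, 5.71 and 6.40 FPKM. Nkx2-1 (Entrez 21869, minus strand, chr12:56531958-56536908) was at 0.54, 0.48 and 0.51 FPKM. Nkx2-1 rested on only about 5, 5 and 8 fragments, and 3 fragments of its transcript are worth 0.321, 0.285 and 0.198 FPKM in the 3 libraries. Lhx6 was 12.3 ± 0.331 times Nkx2-1, with no overlap of their values. The spread of the Nkx2-1 values was narrower than its counting error, 36.0% to 44.5% in a library, so neither it nor the SD of the ratio to Lhx6 measures precision.

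Among other factors of this lineage, Sox6, which acts after Lhx6, was at 5.05 ± 1.54 FPKM and Maf at 5.39 ± 0.384 FPKM. Satb1, which acts in maturing somatostatin cells but also in other neurons, was higher at 15.0 ± 1.76 FPKM. Lhx8, a factor of cholinergic and striatal lineages, was listed at 0, 0.16 and 0 FPKM. Factors of the caudal eminence included Nr2f2 at 10.4 ± 1.85 FPKM, Nr2f1 at 35.0 ± 2.04, Npas1 at 8.06 ± 0.378, Prox1 at 9.89 ± 1.47 and Adarb2 at 2.76, 6.89 and 2.13 FPKM. Prox1 is also the lineage factor of dentate granule cells, and Nr2f1 is expressed by glutamatergic neurons. Sp9 was at 1.42 ± 0.221 FPKM, Sp8 at 0.32, 0.17 and 0.89, and the progenitor factor Gsx2 was listed at 0, 0 and 0.24 FPKM. Isl1, a striatal factor, was listed at 0.65, 0 and 0 FPKM. Of the 22 regulators, which include the Dlx members, Lhx6 and Nkx2-1, 17 reached a mean of 1 FPKM, and the median over all 22 was 3.68 ± 0.830 FPKM.

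Against Gad1, each of the other 7 members tested was called lower past a 2-fold bound (limma treat, testing for a difference beyond 1 log2 unit, adjusted over all genes by Benjamini-Hochberg; lower in 3 of 3 libraries each). Over all 13336 genes tested, 66.1% were called lower and 5.35% higher, so 7 of 7 is to be read beside a high background. Gad1 was the highest member in each of these same libraries, so the direction of the differences has no separate support. The differences ran from -1.63 log2 units for Gad2 to -4.31 for Dlx2, by way of -1.90 for Dlx1, -2.87 for Lhx6, -3.42 for Dlx6, -3.71 for Erbb4 and -4.16 for Dlx5. The largest adjusted p, of Gad2, was 0.00479 (limma). With each gene's own spread, 5 of the 7 remained called, and Gad2 (adjusted p = 0.0763, limma fit without moderation) and Dlx1 (adjusted p = 0.0717) were lost, against 60.7% of all genes called lower and 4.96% higher. With spreads of both genes moderated apart and summed, the adjusted p was 0.0109 for Gad2 and 0.00372 for Dlx1 (limma). That fit leaves out how both genes vary together within a library. Its SE was 0.170 for Gad2 and 0.182 for Dlx1, beside 0.216 and 0.289 from the own spread of the difference. Among the 17 regulators tested, members included, 16 were called lower than Gad1 and Nr2f1 was not.

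**Figure D3:**
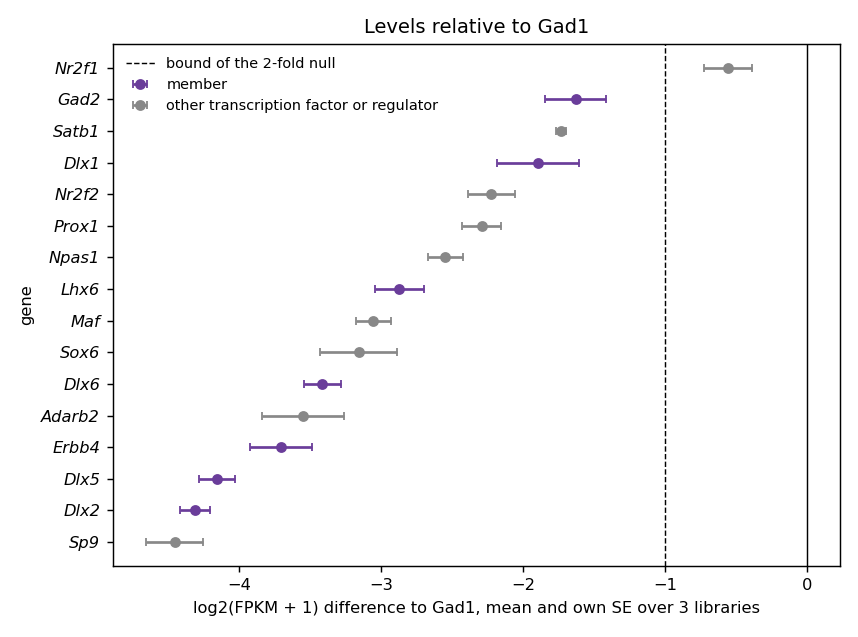
Mean difference in log2(FPKM + 1) to Gad1 for 7 members (purple) and 9 other regulators (grey), with the SE of each gene's own difference over 3 libraries. Gad2 at -1.63 and Dlx1 at -1.90 are the members nearest the dashed bound of a 2-fold difference, and Nr2f1 lies inside it.

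Neighbours in the order of levels were then compared, each lower member against the next higher one, with a null of no difference (limma, adjusted over all genes tested against that member). Besides Gad2 below Gad1, the step from Dlx1 down to Lhx6 was called (-0.97 log2 units, SE 0.265, adjusted p = 0.000383, limma; 3 of 3 libraries; 45.7% of all genes were lower than Dlx1). With own spreads its adjusted p was 0.0380 (limma fit without moderation). The step from Lhx6 to Dlx6 was also called (-0.54, SE 0.163, adjusted p = 0.0219, limma; 28.9% of all genes lower). That call was lost without library 3 (adjusted p = 0.102, limma) and with own spreads (adjusted p = 0.149, limma fit without moderation).

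The other 4 steps were not called. Dlx1 against Gad2 gave -0.27 log2 units (SE 0.242, adjusted p = 0.298, limma; 52.2% of all genes lower than Gad2), with the order kept in 3 of 3 libraries. Erbb4 against Dlx6 gave -0.29 (SE 0.275, adjusted p = 0.326, limma; 15.6% lower), with the order kept in 2 of 3 libraries. Dlx5 against Erbb4 gave -0.45 (SE 0.247, adjusted p = 0.0809, limma; 11.2% lower), and this step passed with summed spreads (adjusted p = 0.0427, limma). Dlx2 against Dlx5 gave -0.15 (SE 0.135, adjusted p = 0.331, limma; 4.05% lower), with the order kept in 2 of 3 libraries. Thus 3 of 7 steps in the order were called by the limma fit, 2 with own spreads and 4 with summed spreads. With Gad2, Dlx1, Dlx6 or Erbb4 as the reference, the limma p-values are too small for 3 libraries, as with Gad1. With Lhx6 or Dlx5 as the reference, limma used far fewer degrees of freedom. The limma p-values of the 7 steps are therefore not directly comparable. The order was set by the mean levels in these same 3 libraries, so the direction of a step has no separate support.

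Erbb4 encodes the receptor tyrosine kinase through which neuregulins act on interneurons. The gene (Entrez 13869, minus strand, chr1:68032186-69108059) is long, and its main transcript has 28 exons and 11782 bases. It was at 3.99, 2.53 and 2.80 FPKM, with library 1 the highest. Because of this length the values rested on about 169, 120 and 190 fragments, more than the higher FPKM of Lhx6 (75, 73 and 117 fragments). Erbb4 was 0.494 ± 0.0923 times Lhx6.

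Of the other ErbB receptors, Erbb2 was at 0.687 ± 0.0603 and Erbb3, the receptor of the glial lineage, at 0.23 ± 0.0529 FPKM, and Erbb4 lay above both in every library. Egfr was at 9.06, 1.82 and 1.99 FPKM, so library 1 stood far above the others and the order of Egfr and Erbb4 depended on the library. Among the ligands, Nrg3 was the highest neuregulin at 11.7 ± 1.66 FPKM, and Erbb4 was 0.262 ± 0.0331 times Nrg3. Nrg1 and Nrg2 were at 1.21 ± 0.377 and 1.28 ± 0.512 FPKM and Nrg4 at 0.41 ± 0.115 FPKM. The EGF-type ligand gene Hbegf was at 10.7 ± 0.225 FPKM. Btc was listed at 0, 0.09 and 0.47, Areg at 0.28, 0 and 0.18, and Ereg at 0 in all 3 libraries. Bace1, the protease that cleaves type III neuregulin 1, was at 19.7 ± 3.53 FPKM, the shedding proteases Adam10 and Adam17 at 17.6 ± 0.240 and 5.69 ± 1.18, and the ErbB2-binding scaffold gene Erbin at 10.6 ± 0.930 FPKM. Of the 16 genes, 10 were tested and 9 were called lower than Gad1 (8 with own spreads, the call of Egfr being lost), where 66.1% of all genes were. The call of Adam10 was lost without library 1 (adjusted p = 0.0675, limma).

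Genes used as markers of interneuron subtypes differed widely in level in the whole tissue. Sst, the somatostatin gene of Lhx6-lineage cells, was at 674, 808 and 654 FPKM, and Cck at 701, 821 and 889 FPKM. Npy, made by several interneuron classes, was at 207, 234 and 185 FPKM. These 3 genes were called higher than Gad1 by more than 2-fold (3.74, 3.92 and 1.97 log2 units, in 3 of 3 libraries each; largest adjusted p = 2.10e-05, limma), and also with own spreads (largest adjusted p = 0.0116). Cck is expressed by pyramidal cells too. Pvalb, the marker of fast-spiking cells, whose level rises late in postnatal life, was at 15.0, 22.4 and 17.7 FPKM, and Vip at 13.1, 15.7 and 13.5 FPKM. Pvalb was called lower than Gad1 by limma (-1.47 log2 units, adjusted p = 0.0299), a call lost with own spreads (adjusted p = 0.0521) and without library 1 (adjusted p = 0.183).

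Further markers covered the remaining classes. Calb2 stood at 84.0 ± 14.8 FPKM, Tac1 at 39.9 ± 4.47, the cannabinoid receptor gene Cnr1 at 33.2 ± 5.02, and Nxph1 at 20.8 ± 1.02 FPKM. Markers of neurogliaform and related cells included Reln at 17.2, 7.36 and 9.86 FPKM, also a Cajal-Retzius cell gene, Lamp5 at 7.47, 10.1 and 12.8, Kit at 13.3 ± 2.10, Ndnf at 2.80 ± 1.07 and Nos1 at 2.28 ± 0.264 FPKM. Pnoc was at 10.2 ± 0.994, Crh at 4.01 ± 0.879 and Htr3a, the serotonin receptor gene of caudal eminence cells, at 3.93 ± 0.384 FPKM. Chrna2, a marker of a stratum oriens class, was at 0.08, 0 and 0.15 FPKM. Of the 18 markers, 17 were tested, 10 were called lower than Gad1 (66.1% of all genes) and 3 higher (5.35% of all genes), and with own spreads 7 lower, without Pvalb, Reln and Kit, and 3 higher. Many of these genes are also expressed outside interneurons, and which cells gave the reads was not measured.

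**Figure D4:**
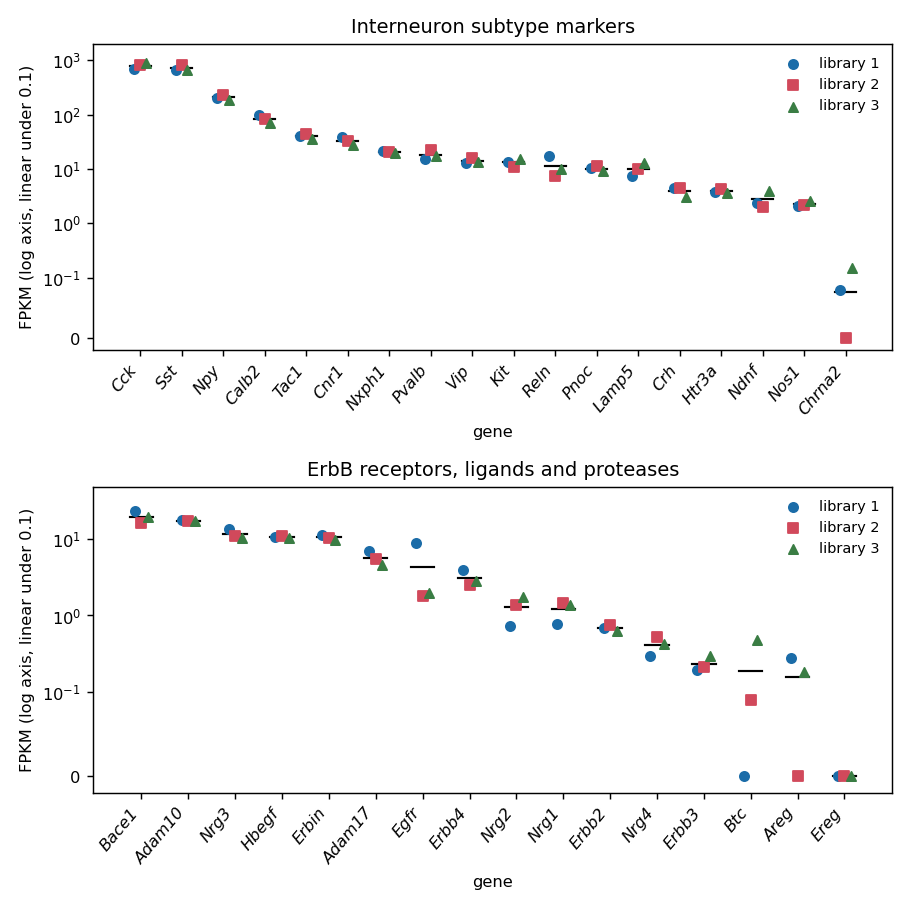
FPKM of interneuron subtype markers (top) and of ErbB receptors, ligands and proteases (bottom) in libraries 1 to 3, on a log axis that is linear under 0.1; bars are means. Cck, Sst and Npy lie highest among subtype markers, and Egfr in library 1 stands apart at 9.06 FPKM.

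Across libraries the members did not move as 1 group. Library 1 held the highest value of 7 of the 9 members (6 of the 8 tested) and library 2 that of Gad1 and Dlx5, while library 3 held none. For Dlx2, Dlx5 and Nkx2-1 the highest library was not resolved at this depth, with counting errors of up to 25.1%, 35.8% and 44.5%. Nor was it for Lhx6 (6.65 and 6.40 FPKM in libraries 1 and 3, counting errors 11.5% and 9.24%). The same held for Dlx6 (4.89 and 4.50 FPKM in libraries 1 and 2, 16.9% and 16.6%). It also held for Dlx1 (15.55 and 14.56 FPKM in libraries 1 and 3, 6.74% and 5.49%). Of the members highest in library 1, this left Gad2 and Erbb4. Over all genes tested, 36.5% had their highest value in library 1. Among the lists around the members, which share some genes with them, it was 64.7% of 17 regulators and 70.0% of 10 ErbB signalling genes. For the lists of GABA handling and subtypes it was 37.5% of 8 and 29.4% of 17 genes tested. The deviation of library 1 from a member's own mean ran from -0.06 log2 units for Dlx5 to 0.30 for Erbb4, with a median over the 9 members of 0.20, beside 0.01 over all genes tested. In library 2 the deviations ran from -0.35 for Dlx1 to 0.23 for Gad1, and in library 3 from -0.39 for Dlx6 to 0.13 for Dlx1. Gad1 and Gad2, whose products act in the same cells, deviated in opposite directions in library 2 (0.23 and -0.20). Each library is 1 sample, so none of these deviations was tested.

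Markers of other cells also differed among the libraries. The 6 choroid plexus markers summed to 398, 1086 and 1312 FPKM in libraries 1, 2 and 3, nearly all of it Ttr, Kcnj13 was listed at 0 in library 1, and 0 of 6 were highest in library 1. The 8 markers of glutamatergic neurons summed to 1373, 1436 and 1540 FPKM, none was at 0, and 5 of 8 were highest in library 1. Their part in the deviations of the members was not tested.

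**Figure D5:**
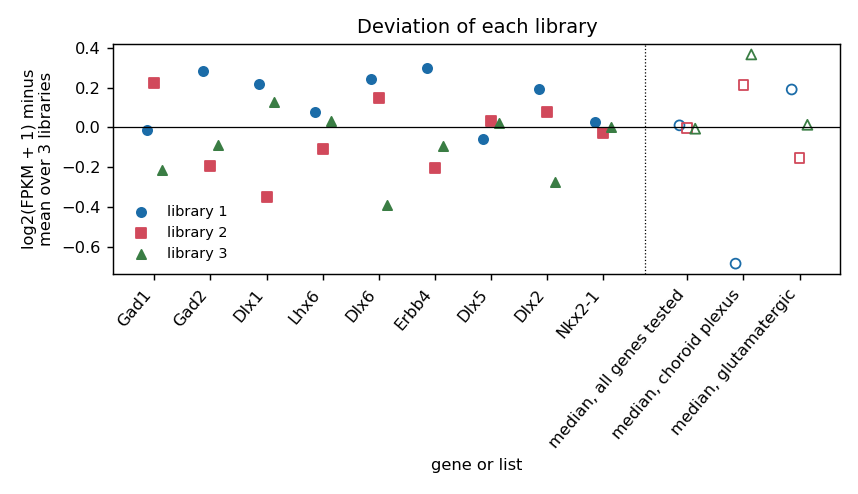
Deviation of log2(FPKM + 1) in each library from the mean over 3 libraries for the 9 members (filled), with medians over all genes tested and over 2 marker lists (open). Library 1 lies above 0 for 7 members, while its choroid plexus median is at -0.69.

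Striatal and pallidal neurons, GABAergic cells next to the hippocampus that express several of the same genes, were checked by 11 markers. Their sum was 28.3, 37.3 and 35.3 FPKM in the 3 libraries, and 6 of the 11 had a mean under 1 FPKM, among them the dopamine receptor genes Drd1 at 0.90, 0.73 and 0.82 FPKM and Drd2 at 0.59, 0.83 and 0.66 FPKM. The highest were Ppp1r1b at 11.2 ± 1.62, Penk at 10.1 ± 4.52 and Rgs9 at 3.52 ± 0.990 FPKM. None of the 11 was at 0 in a library. Their part in the levels of the members was not tested.

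By level in the 3 libraries, the genes most like a member were found by the root mean square difference in log2(FPKM + 1). Nearest to Gad1 were Nat14 (0.0322) and Mrpl3 (0.0574). Nearest to Lhx6 were Grik1 (0.0373), a kainate receptor gene, Zzz3 (0.0396) and Oxsr1 (0.0415). Nearest to Erbb4 were C2cd3 (0.0190), Ddx20 (0.0311) and Tmem74b (0.0327). With 3 libraries of 1 group this is likeness of level only.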

How the data were processed

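Total RNA was sequenced from both ends, 150 bases each, per the labels' protocols. Per the file headers, the authors deposited 1 table of FPKM values whose 3 columns carry the number of the sample titles, by which they were matched. Reads were handled with Bowtie2 on GRCm38 (mm10), per the submitters' processing notes. What counted the reads, on which annotation and with which strand setting, is not given in the sources used here.

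FPKM were used as deposited. Positions and exons are from GENCODE M21 (GRCm38) and promoter windows from RefSeq (GRCm38.p6). Depth was estimated from genes with 1 transcript of at least 800 bases, choosing the worth of 1 fragment and a number of bases taken off the length so that values up to 4 fragments came out whole. Within 0.15 of a whole number were 93.3%, 92.2% and 91.3% of values in libraries 1, 2 and 3. Fragment numbers and floors of 3 fragments are approximate, cover counting error only, and assume the main transcript.

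Differences in log2(FPKM + 1) within a library, a scale that understates those of low genes, were tested with limma 3.58.1 in R 4.3.3 for 13336 genes with a mean of at least 1 FPKM besides the reference, with calls at adjusted p under 0.05 (Benjamini-Hochberg). Differences to Gad1 were tested two-sided for exceeding 1 log2 unit, since FPKM is compared between genes of unlike length, GC content and mappability. With Gad1 as the shared reference the moderated SE was equal for all genes, with 26672 degrees of freedom, which makes its p-values too small. Fits with each gene's own spread (no moderation) and with both genes' moderated spreads summed were therefore added after seeing the data. With 3 libraries, the smallest p of an exact sign-flip test is 0.25. Alternatives were other pseudocounts, filters, nulls, TPM scaling, Gad2 as reference and leaving out each library.

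The members, gene lists and tests were chosen with earlier results of these data known. Named are all members, all genes of the lists of GABA handling, regulators, Dlx genes, subtypes and ErbB signalling, the 3 highest of every other list, the 3 genes nearest in level to Gad1, Lhx6 and Erbb4, and annotated genes overlapping a member; some of the genes so chosen are not reported here, though counts over a list include them. Syt2, Kcnc1, Acan and Kcnj13 were named after their values were seen, as were Avp, Oxt, Sim1, Drd1 and Drd2. Python 3.11.15 with numpy 2.4.6, pandas 2.3.3 and matplotlib 3.10.9 was used.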

Additional observations from a re-analysis of the deposited data

How the results depend on the processing

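Each of the 7 tested members stayed below Gad1 in every alternative run with Gad1 as the reference. Because Gad1 was the highest member in every library, no setting could have turned this direction. The count of members called lower stayed at 7 under other pseudocounts, a minimum of 1 FPKM in every library, TPM scaling, a null of no difference, summed spreads and each left-out library. It was 8 without a filter, where Nkx2-1 entered, 5 with own spreads and 4 with Gad2 as the reference. With Gad2 as the reference, 4297 of 13336 genes were lower and 2168 higher. Of 13336 genes, 8816 were called lower than Gad1 in the main run and 8095 with own spreads. This background was 8750 to 8929 under other pseudocounts, TPM scaling and summed spreads, and 8453 to 8905 with a library left out. With a null of no difference it was 10730, and 1418 were called higher. With 1 FPKM required in every library it was 8075, of fewer genes tested. Without a filter it was 14583, where 19046 genes, Gad1 included, were detected. Of the 7 steps in the order, 1 (Gad2 below Gad1) passed when the difference had to exceed 1 log2 unit. With 1 FPKM added to both genes, the ratio was 4.88 for Dlx1 to Dlx5, 0.538 for Dlx2 to Dlx6, 4.80 for Lhx6 to Nkx2-1 and 0.321 for Erbb4 to Nrg3, and that of Dlx1 to Dlx2 was 5.47, within 1 SD of 8.39, as adding 1 pulls ratios of low genes towards 1. Genes near the level of Gad1 that were not called turned sign in their difference to Gad1 (log2) when 1 library was left out: Slc6a11 (-0.051 to 0.233), Hapln1 (-0.049 to 0.334), C1qa (-0.167 to 0.106) and Cldn5 (-0.048 to 0.181). No paired analysis was possible because there is 1 group, with no other to pair it with. Genes were compared within each library, except that the fit with summed spreads took the spread of each gene over libraries apart. Depth limits Nkx2-1, Dlx5 and Dlx2, which rested on at most 17 fragments in a library.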

Other observations

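Genes used as markers of fast-spiking cells and their extracellular matrix differed widely in level at postnatal day 14. Which cells gave their reads was not measured. The link protein gene Hapln1 was at 43.1, 68.1 and 64.2 FPKM, with library 1 the lowest. Tnr, which encodes tenascin-R, was at 12.5 ± 1.32 FPKM (SD, n = 3). The Kv3 channel genes Kcnc2 and Kcnc1 were at 9.70 ± 0.206 and 9.38 ± 0.623 FPKM. Syt2, a synaptotagmin of parvalbumin terminals, was at 1.22, 6.28 and 3.77 FPKM, while Acan, the aggrecan gene of perineuronal nets, was at 0.90, 0.57 and 0.76 FPKM. Of the 7 genes tested, 6 were lower than Gad1 by more than 2-fold (limma, adjusted over all genes), where 66.1% of all genes were.

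Thalamic and hypothalamic markers were low apart from Calb2. Lhx9 was at 3.59 ± 1.19 and Pomc at 2.68 ± 1.23 FPKM (SD, n = 3), and Avp, Oxt and Sim1 were listed at 0 in all 3 libraries. Among the highest markers of other cell types were Camk2a, Slc17a7 and Neurod6 for glutamatergic neurons at 820 ± 91.1, 452 ± 38.6 and 114 ± 18.5 FPKM, and Aldoc, Slc1a2 and Gfap for astrocytes at 592 ± 62.6, 401 ± 69.0 and 235 ± 37.1 FPKM. For the oligodendrocyte lineage they were Mbp and Olig1 at 716 ± 49.8 and 96.6 ± 13.4 FPKM, for microglia C1qa, P2ry12 and Csf1r at 52.2 ± 7.24, 38.5 ± 4.79 and 17.0 ± 1.69, for endothelium Cldn5, Pecam1 and Cdh5 at 54.0 ± 1.64, 6.87 ± 0.728 and 4.16 ± 0.150, and for choroid plexus Ttr, Folr1 and Aqp1 at 919 ± 471, 6.50 ± 3.00 and 2.15 ± 1.21 FPKM. All 9 oligodendrocyte markers had their highest value in library 3, as did 30.9% of all genes tested.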
